A study of Mus musculus with 18 samples.

Results

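The purinergic signalling genes described here were 10 named genes, P2ry12, P2ry13, P2ry6, P2ry1, P2rx4, P2rx7, Entpd1, Adora1, Adora2b and Adora3, taken by name from the 24421 genes counted in microglia and astrocytes. RNA was sequenced in bulk from both glial types after cell sorting from the whole brains of 9 untreated C57BL/6j mice, and each mouse gave 1 library of each type. The 4 WT mice were 1 female (replicate 1) and 3 males, and the 5 APP mice were 1 male (replicate 1) and 4 females. APP mice had the genotype APP_NLGF/NLGF, in which the mouse App gene itself carries a humanised amyloid-beta stretch with familial Alzheimer mutations under its own promoter. The library names of both genotypes carry C3WT, and no source used here gives the age of the mice. The study asked how both glial types respond to Alzheimer's disease.

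Cells release ATP and other nucleotides when they are active, stressed or damaged. Neighbouring cells read them through P2X receptors, which are ion channels opened by ATP, and P2Y receptors, which act through G proteins, while ectonucleotidases on the cell surface cut ATP and ADP to AMP and then to adenosine, which has receptors of its own. In microglia, ADP sensed by the P2ry12 product steers processes toward injury, UDP sensed by the P2ry6 product promotes phagocytosis, and strong ATP stimulation of the P2rx7 channel feeds the inflammasome. In astrocytes, the ADP receptor encoded by P2ry1 is known for calcium signals.

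All 10 genes had reads in both tables. The filter on low counts (edgeR's filterByExpr) kept 10 of them in microglia, 10 over all 18 libraries together and 9 in astrocytes, where Adora3 did not pass. Levels are in CPM, read counts scaled to 1 common library total with TMM factors of the cell type, and changes are log2 fold changes with their standard error (SE) from edgeR's quasi-likelihood test with sex as a covariate. A gene is said to have risen or fallen only where its Benjamini-Hochberg adjusted p over all genes tested was under 0.05.

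The libraries held 8834866 to 22522407 counts, and their markers went with the labelled cell types. The summed level of 15 microglial markers was 40771 to 51331 CPM in the microglia of WT mice and 44003 to 49761 in those of APP mice, against 122 to 161 in WT astrocytes and 371 to 496 in APP astrocytes. The summed level of 12 astrocyte markers was 44514 to 63167 CPM in WT astrocytes and 33340.1 to 37950.4 in APP astrocytes, lower without overlap, against 2697 to 4304 in the microglia of WT mice and 1956 to 3401 in those of APP mice. WT replicates 1 and 4 stood apart in transcripts of blood vessels: the summed level of 12 endothelial markers in astrocytes was 612 and 551 CPM in them, 3852 and 3011 in WT replicates 2 and 3, and 2838 to 4470.2 in APP. In microglia the summed level of 10 mural cell markers was 27.4 and 27.2 CPM in the same pair of mice, 197 and 177 in the other WT mice, and 236 to 293 in APP. The summed level of 10 markers of border-associated macrophages, the macrophages of the meninges and vessels, was 1736 to 1859 CPM in the microglia of WT mice and 353 to 636 in those of APP mice, and all 10 had counts in both.

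The genes were spread over 6 chromosomes, and 2 pairs of them were neighbours. P2ry13 (chr3:59207892-59210882) and P2ry12 (chr3:59216272-59262871) stood on the minus strand with 5389 bases between them, inside Med12l on the opposite strand. P2rx7 (chr5:122643911-122691432) and P2rx4 (chr5:122707544-122729738) stood on the plus strand with 16111 bases between them. P2ry1 (chr3:61002795-61008982) and Adora3 (chr3:105870858-105908926) lay further along chromosome 3, P2ry6 at chr7:100937630-100974649, Entpd1 at chr19:40612366-40741602, Adora1 at chr1:134199223-134235431 and Adora2b at chr11:62248984-62266453. These positions are those of GENCODE vM21 on GRCm38, the assembly also called mm10.

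The promoter windows of 5 of the genes are shown because the first pair fell together in APP microglia as neighbours, the next pair rose there, and Adora3 fell there and holds 2 kinds of motif. Each is the 250 bases before a RefSeq start of the gene on GRCm38.p6, 5′ to 3′ on the gene's strand, with a motif in capitals where one was found. The RefSeq start used for Adora3 lies inside the longer GENCODE span given above. The windows are P2ry12 at chr3:59262986-59263235 (minus), P2ry13 at chr3:59210883-59211132 (minus), P2rx4 at chr5:122707294-122707543 (plus), Adora1 at chr1:134235458-134235707 (minus, the first of 2 starts) and Adora3 at chr3:105904171-105904420 (plus).
P2ry12: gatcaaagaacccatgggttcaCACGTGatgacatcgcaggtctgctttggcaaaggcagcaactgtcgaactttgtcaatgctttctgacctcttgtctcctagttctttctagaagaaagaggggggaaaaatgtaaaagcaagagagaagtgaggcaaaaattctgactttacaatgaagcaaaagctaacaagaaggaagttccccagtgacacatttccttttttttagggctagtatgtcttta
P2ry13: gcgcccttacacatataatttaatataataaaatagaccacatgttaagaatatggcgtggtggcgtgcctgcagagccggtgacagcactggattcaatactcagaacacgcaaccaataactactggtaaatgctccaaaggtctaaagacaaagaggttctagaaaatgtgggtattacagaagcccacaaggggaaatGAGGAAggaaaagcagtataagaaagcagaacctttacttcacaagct
P2rx4: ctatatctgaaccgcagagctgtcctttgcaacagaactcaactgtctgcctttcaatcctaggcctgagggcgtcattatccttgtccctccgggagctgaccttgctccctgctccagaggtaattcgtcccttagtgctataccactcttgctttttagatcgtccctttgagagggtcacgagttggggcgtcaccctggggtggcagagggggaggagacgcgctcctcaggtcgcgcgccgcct
Adora1: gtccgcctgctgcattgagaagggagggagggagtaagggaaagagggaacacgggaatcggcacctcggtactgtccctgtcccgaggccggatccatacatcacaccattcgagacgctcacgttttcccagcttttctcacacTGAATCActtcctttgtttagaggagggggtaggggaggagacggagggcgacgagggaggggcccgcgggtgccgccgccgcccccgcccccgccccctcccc
Adora3: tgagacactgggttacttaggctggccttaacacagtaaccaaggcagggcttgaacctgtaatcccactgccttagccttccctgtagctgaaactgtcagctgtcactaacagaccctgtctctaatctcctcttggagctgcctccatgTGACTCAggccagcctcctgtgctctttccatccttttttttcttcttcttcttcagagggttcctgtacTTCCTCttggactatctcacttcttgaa

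Motifs were searched by their letters on both strands: GAGGAA, a core bound by the myeloid factor PU.1; TGANTCA, bound by AP-1; CACGTG, an E-box bound by MiT/TFE factors; and TTCNNNGAA, bound by STAT factors. No motif shown overlaps another. GAGGAA was in the window of P2ry13, of Adora3 (on the opposite strand, read as TTCCTC) and of the second start of Entpd1, which is 3 of 12 windows of these genes against 23.3% of 32851 RefSeq promoters of the same length. TGANTCA was in 3 of the 12 (Adora1, Adora3 and P2rx7) against 6.75%, CACGTG in 1 (P2ry12) against 6.02%, and TTCNNNGAA in 0 against 7.02%. In P2ry12 the E-box lay 228 to 223 bases before the start, and in P2ry13 the GAGGAA lay 48 to 43 bases before it. The P2rx4 window held none of the 4 motifs. These are matches of letters and not measured binding sites.

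The 10 genes split by cell type into 7 that were higher in microglia and 3 that were higher in astrocytes, in both genotypes. The background was high: among all 15550 genes tested in the fit of 18 libraries, 37.9% were higher in microglia and 42.3% higher in astrocytes in WT, and 40.7% and 40.4% in APP. In WT, the log2 difference of microglia minus astrocytes was largest for P2ry13 (9.27, SE 0.28), P2ry6 (9.13, SE 0.22), Adora3 (8.93, SE 0.37) and P2ry12 (8.05, SE 0.16), followed by Entpd1 (4.73, SE 0.21), P2rx7 (2.77, SE 0.12) and P2rx4 (1.45, SE 0.08). It was negative for Adora1 (-4.20, SE 0.21), P2ry1 (-4.47, SE 0.40) and Adora2b (-5.40, SE 0.30). In APP the difference narrowed to 6.60 for P2ry12, 7.12 for P2ry13, 7.18 for P2ry6, 3.56 for Entpd1 and -1.95 for Adora1, and widened to 2.73 for P2rx4.

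Levels of different genes can be compared only per length, here as CPM per kilobase of merged exons on a scale common to all 18 libraries. This understates genes with many alternative exons, such as P2rx4. In WT microglia the ADP receptor P2ry12 stood first at 1303 ± 195 CPM per kb (SD, n = 4), which was 56.4% of the sum over the 10 genes. P2ry13, a related ADP receptor, followed at 650 ± 102 with 28.1% of the sum. Entpd1, which encodes the ectonucleotidase CD39, stood at 195 ± 18.7, P2ry6 at 79.1 ± 6.55, P2rx7 at 58.5 ± 1.43, Adora3 at 16.4 ± 2.28 and P2rx4 at 8.23 ± 0.124, and the library ranges of these 7 genes did not overlap. Adora1 (0.789 to 2.12 CPM per kb), Adora2b (0.603 to 1.50) and P2ry1 (0.0778 to 0.501) stood last, and the ranges of Adora1 and Adora2b overlapped.

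In APP microglia the order of the first 5 was the same, at 603 ± 30.7 CPM per kb for P2ry12, 331 ± 25.4 for P2ry13, 135 ± 12.5 for Entpd1, 54.7 for P2ry6 and 39.1 for P2rx7 (SD where given, n = 5). P2rx4 and Adora3 changed places: P2rx4 ranged from 14.8 to 18 CPM per kb and Adora3 from 7.41 to 10.1, against 8.12 to 8.40 and 13.7 to 19.1 in WT. In WT astrocytes the adenosine receptors stood first, Adora2b at 40.5 ± 10.9 CPM per kb and Adora1 at 20.9 ± 4.44 (SD, n = 4). P2rx7 (6.77 to 9.60) and Entpd1 (4.93 to 9.79) overlapped in range, as did P2ry12 (4.63 to 6.04) and P2ry1 (3.71 to 5.01). In APP astrocytes the ranges of Adora2b (20.4 to 30.4) and Adora1 (18.9 to 22.5) overlapped. The plot of levels per length shows this order for both cell types.

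**Figure D1:**
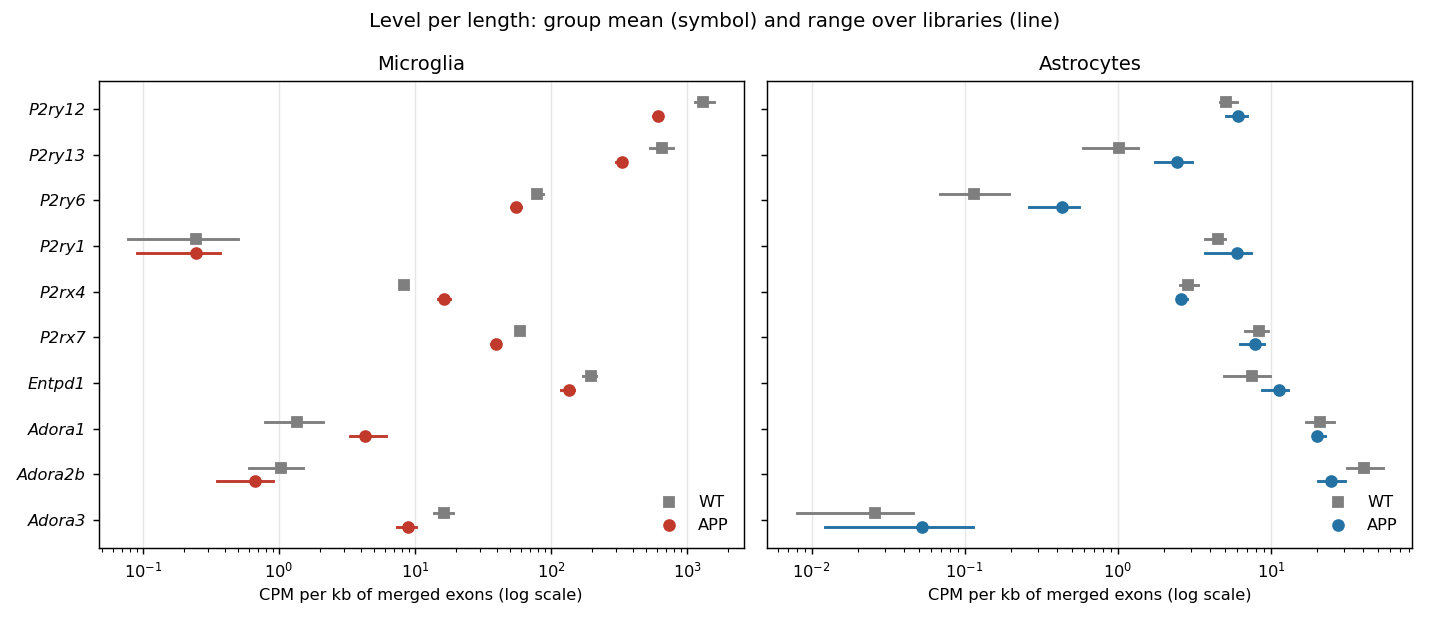
Level of each gene in CPM per kilobase of merged exons (log axis) in microglia and astrocytes; squares and circles are group means of WT (n = 4) and APP (n = 5), and lines run from the lowest to the highest library. The P2rx4 and Adora3 symbols change places in microglia between WT and APP, and 1 WT astrocyte library with 0 Adora3 counts is drawn at the left end of its line.

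Between APP and WT microglia, 8 of the 10 genes changed: 6 fell (P2ry12, P2ry13, P2ry6, P2rx7, Entpd1 and Adora3) and 2 rose (P2rx4 and Adora1). Of all 13116 genes tested in microglia 19.2% fell and 19.1% rose. In each of the 8, WT and APP libraries did not overlap, which was so for 39% of all genes tested. The median log2 fold change of the 10 was -0.55, against 0.01 for all genes tested. The plot of levels by library shows every value.

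**Figure D2:**
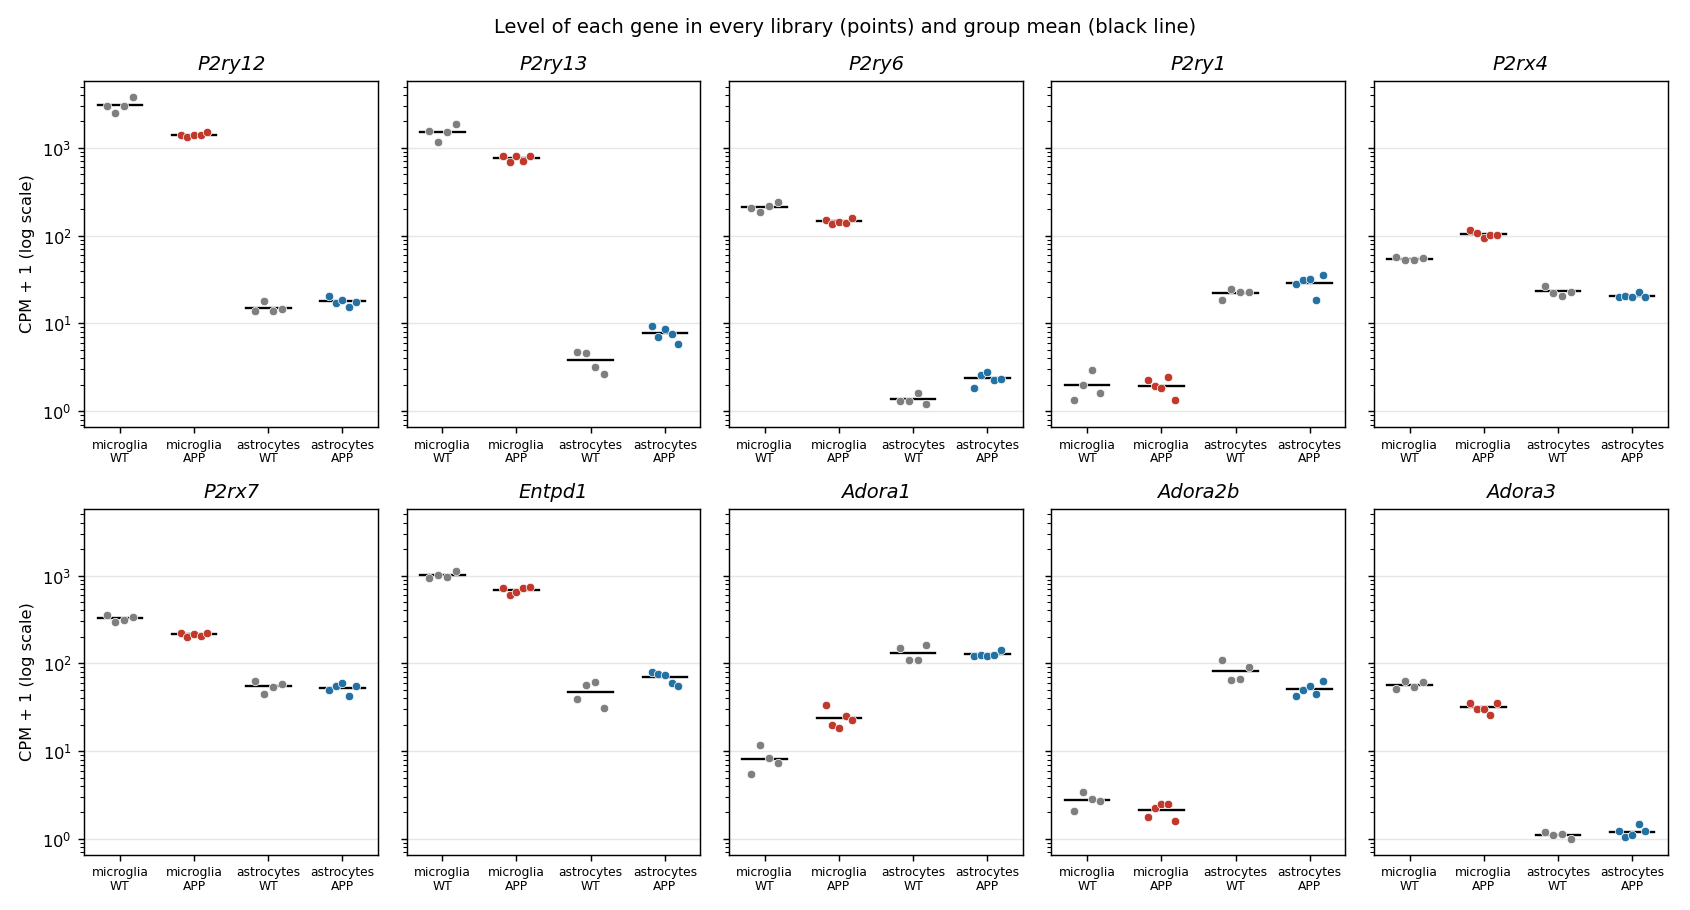
CPM + 1 (log axis) of each gene in every library of the 4 groups; points are libraries (n = 4 for WT, n = 5 for APP) and black lines group means. In microglia the APP points of P2ry12, P2ry13, P2ry6, P2rx7, Entpd1 and Adora3 lie below all WT points, and those of P2rx4 and Adora1 lie above them.

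P2ry12, the Gi-coupled ADP receptor of resting microglia, stood at 2976, 2507, 3011 and 3820.0 CPM in WT replicates 1 to 4 and at 1389.7, 1327, 1382, 1399 and 1507 in the 5 APP libraries. The APP libraries lay close together, below a more scattered WT group. Its log2 fold change was -1.12 (SE 0.13; edgeR adjusted p = 5.41e-05), or 2.18-fold lower. In bulk samples, fewer cells of a type that carry a transcript and less transcript per cell cannot be told apart.

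P2ry13, its neighbour, which also binds ADP through Gi, stood at 1542, 1169.8, 1514 and 1876 CPM in WT and at 816, 696, 799, 711 and 797 in APP. As for P2ry12, WT replicate 4 was the highest library and WT replicate 2 the lowest of the WT group. P2ry13 fell by 0.97 on the log2 scale (SE 0.14; edgeR adjusted p = 0.000227). Among males alone, 3 WT mice against 1 APP mouse, its fall of 0.88 had an adjusted p of 0.0555.

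P2ry6, the Gq-coupled UDP receptor, stood at 207, 186, 214 and 240 CPM in WT microglia and at 150, 135, 141, 137 and 157 in APP. The groups were separate, and the fall was smaller than those of the ADP receptors: -0.52 on the log2 scale (SE 0.09; edgeR adjusted p = 0.00114). Its adjusted p was 0.0616 without WT replicates 1 and 4 and 0.0716 in males alone.

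P2ry1, the Gq-coupled ADP receptor, was near the lower end of detection in microglia, with 3, 12, 18 and 7 counts in WT and 15, 12, 14, 19 and 6 in APP. These correspond to 0.965 ± 0.704 CPM (SD, n = 4) and 0.959 ± 0.419 (SD, n = 5), and the groups overlapped. Its log2 fold change of 0.58 (SE 0.62; edgeR adjusted p = 0.498) had an SE as large as itself.

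The ATP-gated channels went opposite ways. P2rx4, a channel that is highly permeable to calcium and resides largely in lysosomes, stood at 56.4, 51.4, 51.6 and 54.7 CPM in WT and at 116, 107, 94.1, 101 and 101 in APP. Every APP library stood well above every WT library, with little scatter in WT. P2rx4 rose by 0.99 on the log2 scale (SE 0.08; edgeR adjusted p = 4.16e-06), or 1.98-fold.

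P2rx7, the channel that needs high ATP and is linked to inflammasome activation, stood at 351, 297, 312 and 334 CPM in WT and at 221, 201, 214, 206 and 223 in APP. The lowest WT library was above the highest APP library. P2rx7 fell by 0.62 on the log2 scale (SE 0.08; edgeR adjusted p = 7.98e-05), to 64.9% of WT.

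Entpd1, whose product CD39 cuts ATP and ADP to AMP, stood at 925, 1003, 964 and 1129.6 CPM in WT and at 724, 607, 643, 726 and 745 in APP microglia. The groups did not overlap. Entpd1 fell by 0.48 on the log2 scale (SE 0.10; edgeR adjusted p = 0.00275), and without WT replicates 1 and 4 its adjusted p was 0.0773.

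Of the adenosine receptors, Adora1, which couples to Gi, stood at 4.44, 10.7, 7.35 and 6.25 CPM in WT microglia and at 32.3, 18.7, 17.3, 23.8 and 21.7 in APP. The counts behind these were 41 to 133 per WT library and 240 to 386 per APP library, and the groups were separate. Adora1 rose by 2.07 on the log2 scale (SE 0.20; edgeR adjusted p = 9.34e-06), or 4.20-fold, the largest change of the 10 genes in microglia.

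Because Adora1 was far higher in astrocytes, its microglial level was also set against the astrocyte library of the same mouse. Microglia held 3.34% to 12.3% of the astrocyte level in WT mice and 17.4% to 32.2% in APP mice. For the summed astrocyte markers that share was 4.78% to 11.5% in WT and 6.16% to 10.8% in APP, and the median shares of the 12 single markers ranged from 2.41% to 28.1% in WT and 2.57% to 26.8% in APP, with Glul, which makes glutamine, at the top. Within WT, the shares of Adora1 and of the summed astrocyte markers were both highest in replicate 2. The median WT share of Adora1 was 6.34%, below the 7.41% of the summed markers and above the median of every single marker except Glul. In APP the summed share lay within its WT range in all 5 mice, and the Adora1 share lay above its WT range in all 5. Single markers varied: the share of S1pr1, a lipid receptor, went from 3.89% to 8.17% in WT to 11.1% to 15.5% in APP, above WT in all 5 mice like Adora1, and that of Gfap went from 2.33% to 7.24% to 4.28% to 16%, above the highest WT mouse in 3 of 5. The part of astrocyte transcripts in the WT level of Adora1 in microglia and in its rise was not tested. Adora2b and P2ry1, the other 2 genes higher in astrocytes, had median shares of 2.80% and 4.24% in WT and of 2.99% and 3.68% in APP.

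Adora3, a Gi-coupled adenosine receptor of microglia in mice, stood at 49.7, 61.9, 52.4 and 60.8 CPM in WT microglia and at 34.5, 28.9, 29.5, 25 and 34.1 in APP. No APP library reached the WT range. Adora3 fell by 0.76 on the log2 scale (SE 0.11; edgeR adjusted p = 0.000236). Adora2b, the Gs-coupled receptor with low affinity for adenosine, had 10, 30, 17 and 19 counts in WT microglia and 9, 16, 26, 20 and 10 in APP, its groups overlapped, and its log2 fold change was -0.59 (SE 0.50; edgeR adjusted p = 0.381).

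The summed markers of border-associated macrophages were lower in APP microglia without overlap, as were the genes that fell. Those of mural cells were higher without overlap, as were P2rx4 and Adora1. The summed markers of endothelium were also higher (70.6 to 97.1 CPM in WT, 132 to 187 in APP). Those of monocytes and neutrophils (37.6 to 67.3 and 28.7 to 35.9), of lymphocytes (13.4 to 19.9 and 6.60 to 11.5) and of platelets (28.1 to 36.8 and 11.6 to 14.6) were lower. Each of these lists separated WT from APP libraries, as all 8 genes did. The part of these lists in the changes was not tested. The 15 microglial markers summed to overlapping ranges in WT and APP, as given above.

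In astrocytes 4 of the 9 genes tested changed between APP and WT: P2ry13, P2ry6 and Entpd1 rose and Adora2b fell. Of all 14957 genes tested in astrocytes 12.1% rose and 13.5% fell, and for 21.4% the libraries of the genotypes did not overlap. The median log2 fold change of the 9 was 0.38, against 0.01 for all genes tested. The libraries of P2ry13, P2ry6 and Adora2b did not overlap, and those of Entpd1 did. All 4 calls were lost without WT replicate 1, the only WT female. In that fit 0 of the 9 passed in edgeR, with 2 at an unadjusted p under 0.05 and 34 of all 15129 genes (0.225%) called. With sex as a covariate, that fit sets the 3 WT males against the 1 APP male, so the loss does not single out that library. The log2 fold changes without it were 1.72 for P2ry13, 0.99 for P2ry6, 0.69 for Entpd1 and -0.83 for Adora2b, in the same direction as with it. Without APP replicate 1, 2, 3 or 5, 2 passed each time. Leaving out APP replicate 1, the only APP male, likewise sets the 4 APP females against the 1 WT female.

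P2ry13 stood at 3.76, 3.56, 2.18 and 1.64 CPM in WT astrocytes and at 8.40, 5.95, 7.66, 6.60 and 4.79 in APP, from 15 to 174 counts per library. The groups did not overlap, and the log2 fold change was 1.23 (SE 0.31; edgeR adjusted p = 0.0221), falling to 0.73 with an adjusted p of 0.228 without APP replicate 1. P2ry6 stood at 0.313, 0.301, 0.612 and 0.218 CPM in WT and at 0.821, 1.59, 1.76, 1.29 and 1.33 in APP, from only 2 to 14 counts per WT library and 17 to 37 per APP library. Its log2 fold change was 1.55 (SE 0.45; edgeR adjusted p = 0.0352), and the adjusted p was 0.0532 to 0.372 when any of WT replicates 1, 2 and 4 or APP replicates 2, 3 and 5 was left out. P2ry12 stood at 12.8, 16.8, 12.9 and 13.7 CPM in WT and at 19.4, 16.3, 17.5, 14.2 and 16.6 in APP, with overlapping groups and a log2 fold change of 0.38 (SE 0.13; edgeR adjusted p = 0.0586), which passed without WT replicate 2 (0.0392) or APP replicate 4 (0.0452).

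P2ry13 and P2ry6 were at a few CPM or less in astrocytes, P2ry12 was higher, and the summed microglial markers moved with genotype there. In WT mice the astrocyte library held a median of 0.370% of the same mouse's microglial level of P2ry12, 0.169% of P2ry13 and 0.132% of P2ry6. In APP mice these medians were 1.04%, 0.769% and 0.779%. The 15 microglial markers had median shares of 0.0929% to 0.826% in WT and 0.452% to 2.76% in APP, and their sum went from 0.272% to 0.832%, so the shares of the 3 receptors lay within the range of the markers in both genotypes. Since the summed markers did not overlap between the genotypes in astrocytes, genotype and microglial marker level cannot be told apart. With that level as a covariate, 0 of the 9 genes and 0 of all 14957 passed in edgeR. Of the 9, 0 had an unadjusted p under 0.05. The log2 fold change of P2ry13 was 1.28 in that fit, against 1.23 without the covariate, while P2ry12 had -0.20 and P2ry6 -1.22.

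**Figure D3:**
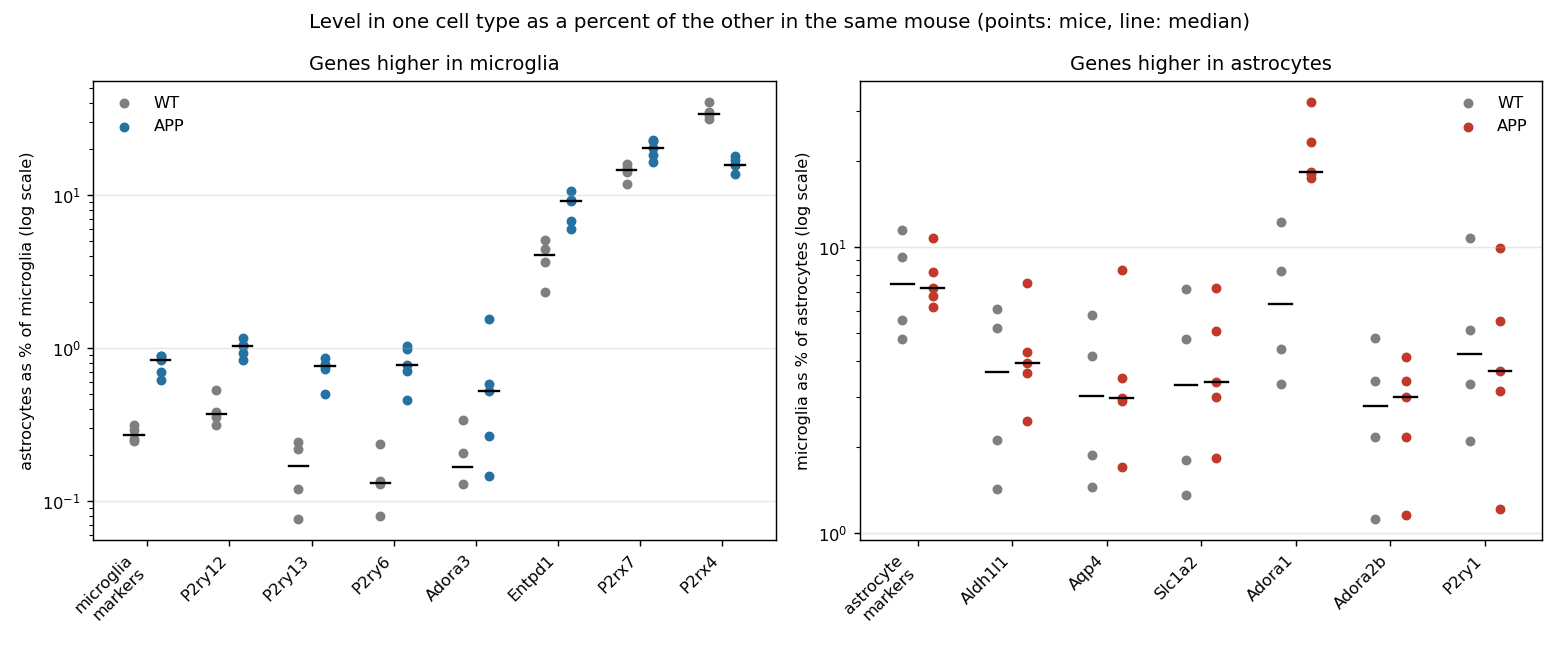
Left, the astrocyte level as a percent of the microglial level in the same mouse for genes higher in microglia; right, the microglial level as a percent of the astrocyte level for genes higher in astrocytes (log axes; points are mice, 4 WT and 5 APP, lines medians, and 1 WT mouse at 0 for Adora3 has no point). P2ry12, P2ry13 and P2ry6 sit close to the summed microglial markers in both genotypes, and the Adora1 points of APP mice lie at 17.4% to 32.2% while the summed astrocyte markers lie at 6.16% to 10.8%.

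Entpd1 stood at 37.8, 55.8, 59.5 and 30.0 CPM in WT astrocytes and at 78.9, 75.5, 72.5, 59.4 and 53.5 in APP. The groups overlapped, WT replicates 1 and 4 were the lowest, and the log2 fold change was 0.74 (SE 0.24; edgeR adjusted p = 0.0477). The same pair of libraries was low in endothelial markers, whose cells carry CD39 on their surface. Adding the endothelial marker level to the model, the log2 fold change of Entpd1 was 0.25 with an adjusted p of 0.514, and without WT replicates 1 and 4 it was 0.44 with an adjusted p of 0.315. In these fits only 2.59% and 0.924% of all genes tested passed, so the lost call was not particular to Entpd1. The part of endothelial transcripts in the Entpd1 rise was not tested. Leaving out WT replicate 1 or any single APP library also took the adjusted p of Entpd1 to 0.0547 or above. The median share of Entpd1 in the microglial level, 4.05% in WT and 9.13% in APP, was above that of every microglial marker.

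Adora2b stood at 108, 62.8, 64.6 and 89.5 CPM in WT astrocytes and at 41.1, 49.1, 53.5, 44.0 and 61.2 in APP. The highest APP library came just below the lowest WT library, and the WT libraries that were low in endothelial markers were the highest. Adora2b fell by 0.94 on the log2 scale (SE 0.16; edgeR adjusted p = 0.00723). The summed astrocyte markers, lower in APP as given above, moved with this fall, and their part was not tested. With endothelial markers in the model it still passed, with an adjusted p of 0.0474 and a log2 fold change of -0.56, and without WT replicates 1 and 4 its log2 fold change was -0.64 with an adjusted p of 0.152.

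Adora1 stood at 149, 109, 107 and 162 CPM in WT and at 119, 122, 120, 123 and 142 in APP. The APP libraries lay within the WT range, and the log2 fold change was -0.15 (SE 0.15; edgeR adjusted p = 0.455), which turned to 0.24 with endothelial markers as a covariate. P2rx7, at 54.3 ± 7.85 CPM in WT (SD, n = 4) and 51.1 ± 6.81 in APP (SD, n = 5), had a log2 fold change of -0.19 (SE 0.14; edgeR adjusted p = 0.339). P2rx4 stood at 22.1 ± 2.59 and 19.7 ± 1.19 CPM, with a log2 fold change of -0.25 (SE 0.10; edgeR adjusted p = 0.0873).

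P2ry1, the calcium-linked ADP receptor, stood at 17.3, 23.4, 21.8 and 21.5 CPM in WT astrocytes and at 27.1, 29.9, 31.4, 17.5 and 34.7 in APP. APP replicate 4 stood among the WT libraries, and the log2 fold change was 0.50 (SE 0.23; edgeR adjusted p = 0.132). Without that library it was 0.58 with an adjusted p of 0.0277. Adora3 had 3, 2, 3 and 0 counts in WT astrocytes and 5, 1, 2, 9 and 5 in APP, and it was not tested there. The 0 in WT replicate 4 allows up to 0.327 CPM, by counting error only.

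The response to APP differed between microglia and astrocytes for 6 of the 10 genes in a single fit over all 18 libraries. It was more negative in microglia for P2ry12 (-1.45, SE 0.19; edgeR adjusted p = 7.06e-05), P2ry13 (-2.16, SE 0.32; edgeR adjusted p = 0.00024), P2ry6 (-1.94, SE 0.32; edgeR adjusted p = 0.000472) and Entpd1 (-1.17, SE 0.27; edgeR adjusted p = 0.0064). It was more positive in microglia for P2rx4 (1.28, SE 0.11; edgeR adjusted p = 1.73e-06) and Adora1 (2.26, SE 0.28; edgeR adjusted p = 4.99e-05). Of all 15550 genes 8.91% were more negative and 12.5% more positive in microglia. The microglial marker transcripts that moved with genotype in astrocytes moved with the astrocyte side of the P2ry12, P2ry13 and P2ry6 differences, and their part was not tested.

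The difference was not called for P2rx7 (-0.39, SE 0.16; edgeR adjusted p = 0.104), P2ry1 (0.04, SE 0.57; edgeR adjusted p = 0.978), Adora2b (0.39, SE 0.46; edgeR adjusted p = 0.606) and Adora3 (-1.43, SE 0.71; edgeR adjusted p = 0.176). The last 3 had at most 30 counts per library in one of the cell types, which gives the wide SE. Without WT replicate 1 the edgeR adjusted p was 0.0615 for P2ry6 and 0.117 for Entpd1, and without WT replicates 1 and 4 it was 0.115 and 0.0792. In these fits only 5.45% and 5.79% of all genes tested were called, so the lost calls were not particular to P2ry6 and Entpd1. Without APP replicate 1 it was 0.0528 for Entpd1, and without APP replicate 4 the difference of P2rx7 passed (-0.52; edgeR adjusted p = 0.0251). The plot of fitted changes sets the 3 comparisons side by side.

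**Figure D4:**
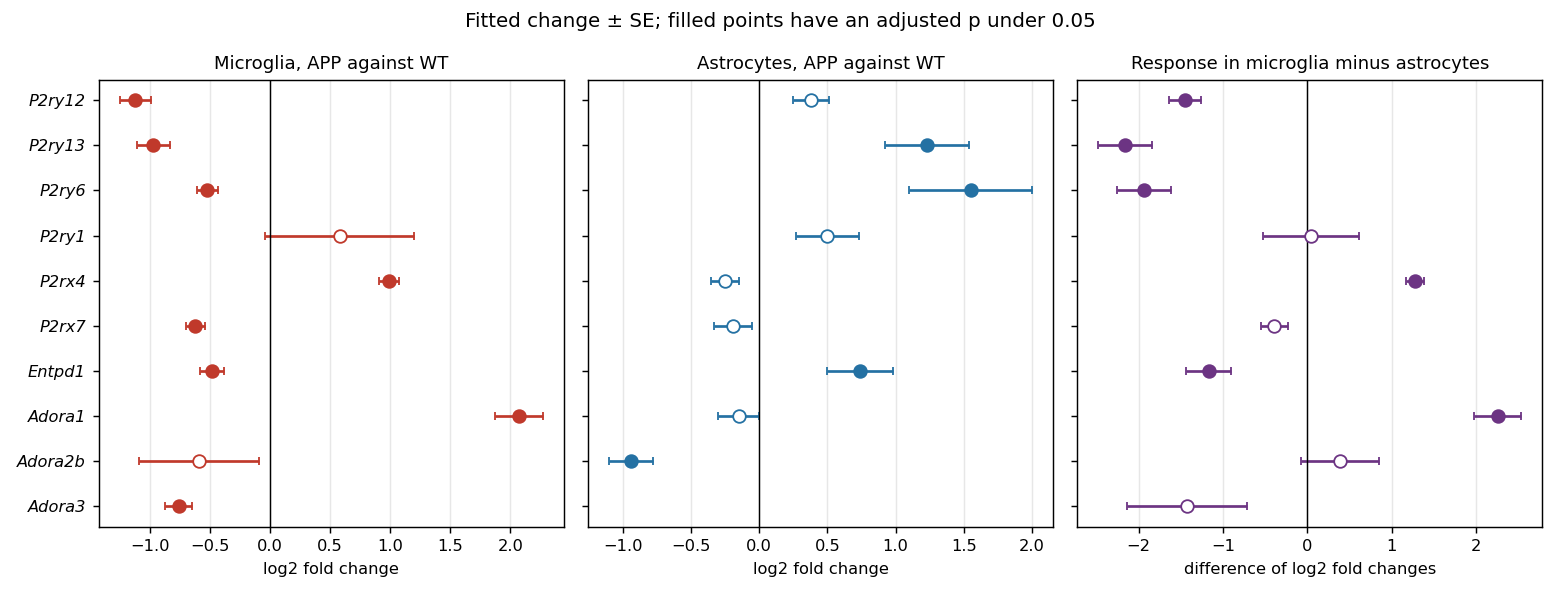
Fitted log2 fold change of APP against WT in microglia (left) and astrocytes (middle) and the difference of these responses (right); bars are SE and filled points have an adjusted p under 0.05. P2rx4 and Adora1 stand at 0.99 and 2.07 in microglia, right of 0, while P2ry12 and P2ry13 stand at -1.12 and -0.97; Adora3 has no point in astrocytes.

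Overlapping genes bear on how reads were assigned, since no source used here says whether strand was used. P2ry12 shares 9 exon bases with Med12l, a Mediator subunit gene on the opposite strand, and P2ry13 shares 0. Med12l stood at 79.2 to 103 CPM in WT microglia and 42.3 to 51.8 in APP, and fell by 0.93 on the log2 scale (SE 0.10; edgeR adjusted p = 2.98e-05), alongside the much more abundant P2ry12 and P2ry13. Adora1 shares 1162 exon bases, 20.1% of its merged exons, with Mybph on the opposite strand, a muscle protein gene that was added to the list of neighbours for this overlap. Mybph stood at 1.73 to 2.49 CPM in WT microglia and 1.21 to 2.42 in APP, below Adora1 in every library, with a log2 fold change of 0.11 (edgeR adjusted p = 0.823). Adora3 shares 779 exon bases, 20.9% of its own, with Tmigd3 on the same strand, which stood at 1.24 to 2.49 CPM in microglia with a log2 fold change of -0.44 (SE 0.36; edgeR adjusted p = 0.36).

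Other genes next to the members did not all go the same way. Igsf10, next to the P2ry12 cluster, rose from 4.16 ± 0.607 CPM (SD, n = 4) to 12.5 ± 1.36 (SD, n = 5) in microglia (log2 fold change 1.43, SE 0.15; edgeR adjusted p = 2.26e-05) and also rose in astrocytes (1.04, SE 0.24; edgeR adjusted p = 0.0169). P2ry14, the UDP-sugar receptor of the same cluster, had a log2 fold change of 0.92 in microglia (SE 0.51; edgeR adjusted p = 0.183) at 1.18 ± 0.765 and 2.23 ± 0.155 CPM. Gpr171, a related receptor there, was too low to be tested in microglia, with at most 29 counts in a library. P2ry2, an ATP and UTP receptor next to P2ry6, rose from 1.69 ± 0.772 to 3.79 ± 0.631 CPM in microglia (0.85, SE 0.31; edgeR adjusted p = 0.0466), while P2ry6 fell. Camkk2, a kinase gene beside P2rx4, stood at 93.9 ± 2.76 and 82.3 ± 10.0 CPM (-0.13, SE 0.10; edgeR adjusted p = 0.315).

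The wider purinergic pathway was read through 8 lists with 63 genes in the tables, of which 53 were not among the 10. In microglia 40 of the 53 were tested, and 4 rose and 14 fell, against 19.1% and 19.2% of all 13116 genes. Their median log2 fold change was -0.04. In astrocytes 44 were tested, and 6 rose and 6 fell, against 12.1% and 13.5% of all 14957 genes. The median there was 0.24. The response differed between the cell types for 12 of 49 tested. It was more positive in microglia for 3 and more negative for 9, against 12.5% and 8.91% of all 15550 genes. The counts of each list below stand against these same shares.

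Among receptors, 1 of 6 tested P2Y genes rose and 3 fell in microglia, and of the 3 tested P2X genes 1 rose and 2 fell. P2rx1, a fast-desensitising ATP channel known from platelets, stood at 5.47 to 10.2 CPM in WT microglia and at 1.89 to 3.01 in APP, and fell by 1.80 on the log2 scale (SE 0.25; edgeR adjusted p = 0.000196). The summed level of 7 platelet markers, of which Gp6 was at 0, went from 28.1 to 36.8 CPM in WT to 11.6 to 14.6 in APP microglia, moving with it, and its part was not tested. In astrocytes 2 of 6 tested P2Y genes rose, 0 of 6 P2X genes passed in edgeR (1 had an unadjusted p under 0.05), and 1 of 3 adenosine receptors fell.

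Of the enzymes at the cell surface, 1 of 6 tested ectonucleotidases rose in microglia and 1 fell. Enpp1, which cuts ATP to AMP and pyrophosphate, stood at 12.4 to 15.5 CPM in WT microglia and at 38.3 to 49.4 in APP, and rose by 1.62 on the log2 scale (SE 0.12; edgeR adjusted p = 1.49e-06), opposite to Entpd1. It rose in astrocytes as well, from 16.6 ± 5.12 (SD, n = 4) to 34.9 ± 7.56 CPM (SD, n = 5; log2 fold change 1.46, SE 0.20; edgeR adjusted p = 0.00357). The summed mural markers moved with the rises of Enpp1, and with those of Igsf10 above, in both cell types. In astrocytes they stood at 805 to 2313 CPM in WT and 2469 to 3019.9 in APP, without overlap, and their part was not tested. Entpd2, the ATP-cutting ectonucleotidase of astrocytes, fell there from 271 ± 81.5 to 161 ± 16.5 CPM (-0.91, SE 0.19; edgeR adjusted p = 0.014). The summed astrocyte markers were lower in APP too, and their part in this fall and in those of Adk, Gja1 and Gjb6 was not tested. Gja1 is itself among the 12 summed markers, so its fall is part of theirs. Nt5e, which makes adenosine from AMP and was named after its values were seen, was low in both cell types, at 0.722 ± 0.376 and 0.755 ± 0.371 CPM in WT and APP microglia and 3.02 ± 1.26 and 4.55 ± 1.18 in astrocytes. Of the NTPDases inside the cell, Entpd5 rose in microglia (0.60, SE 0.12; edgeR adjusted p = 0.00218) and 0 of 3 passed in astrocytes in edgeR (1 at an unadjusted p under 0.05), where Entpd6 came closest (-0.47, SE 0.18; edgeR adjusted p = 0.0868).

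Of 8 tested genes for adenosine uptake and metabolism, 5 fell and 0 rose in microglia (median log2 fold change -0.71, against 0.01 for all genes). Pnp, which splits inosine and guanosine, went from 131 ± 16.2 to 61.6 ± 3.10 CPM (-1.05, SE 0.10; edgeR adjusted p = 1.08e-05). Ada, which turns adenosine into inosine, went from 3.68 ± 0.824 to 1.58 ± 0.432 CPM (-1.47, SE 0.31; edgeR adjusted p = 0.00267). The nucleoside transporters Slc29a3 (-0.57, SE 0.12) and Slc29a1 (-0.30, SE 0.09) fell too. In astrocytes 3 of 8 fell and 2 rose. Adk, the kinase that removes adenosine in astrocytes, went from 176 ± 28 (SD, n = 4) to 108 ± 9.69 CPM (SD, n = 5; -0.84, SE 0.12; edgeR adjusted p = 0.00385). Slc29a2 (-0.75, SE 0.19) and Pnp (-0.50, SE 0.13) fell while the transporter Slc28a3 (1.94, SE 0.52) rose, each with overlapping groups. Slc28a3 was low, with 3, 19, 23 and 2 counts in WT replicates 1 to 4 and 49, 28, 36, 22 and 18 in APP.

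Of 6 tested genes linked to ATP release, 2 fell in microglia, the volume-regulated channel subunit Lrrc8a (-0.47, SE 0.08) and Calhm2 (-0.45, SE 0.10), and 2 fell in astrocytes, the gap junction genes Gjb6 (-0.57, SE 0.13) and Gja1 (-0.62, SE 0.18). Of 14 G proteins and effectors of the receptors tested in microglia, 6 fell and 1 rose. Gnas, which encodes the stimulatory G protein subunit that Adora2b but not Adora1 uses, stood at 371 to 418 CPM in WT microglia and at 1609.9 to 2105 in APP, and rose by 2.14 on the log2 scale (SE 0.11; edgeR adjusted p = 1.22e-07). Pik3r5, a regulatory subunit of the PI3-kinase that Gi receptors activate (-0.80, SE 0.09), Kcnk13, the potassium channel that works with P2Y12 in microglia (-0.41, SE 0.09), and Plcb3, a phospholipase downstream of Gq (-0.30, SE 0.07), fell. In astrocytes Rgs10 (1.87, SE 0.37), Pik3cg (1.99, SE 0.43) and Gnas (0.42, SE 0.12) rose and 0 of 13 fell. Rgs10 stood at 0.563 to 1.71 CPM in WT and 2.94 to 4.18 in APP astrocytes, and Pik3cg at 0.501 to 1.56 and 2.05 to 4.07, against 249 ± 22 and 602 ± 72.5 CPM in WT microglia (SD, n = 4). The summed microglial markers in astrocytes, 122 to 161 CPM in WT and 371 to 496 in APP, moved with both rises, and their part was not tested.

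**Figure D5:**
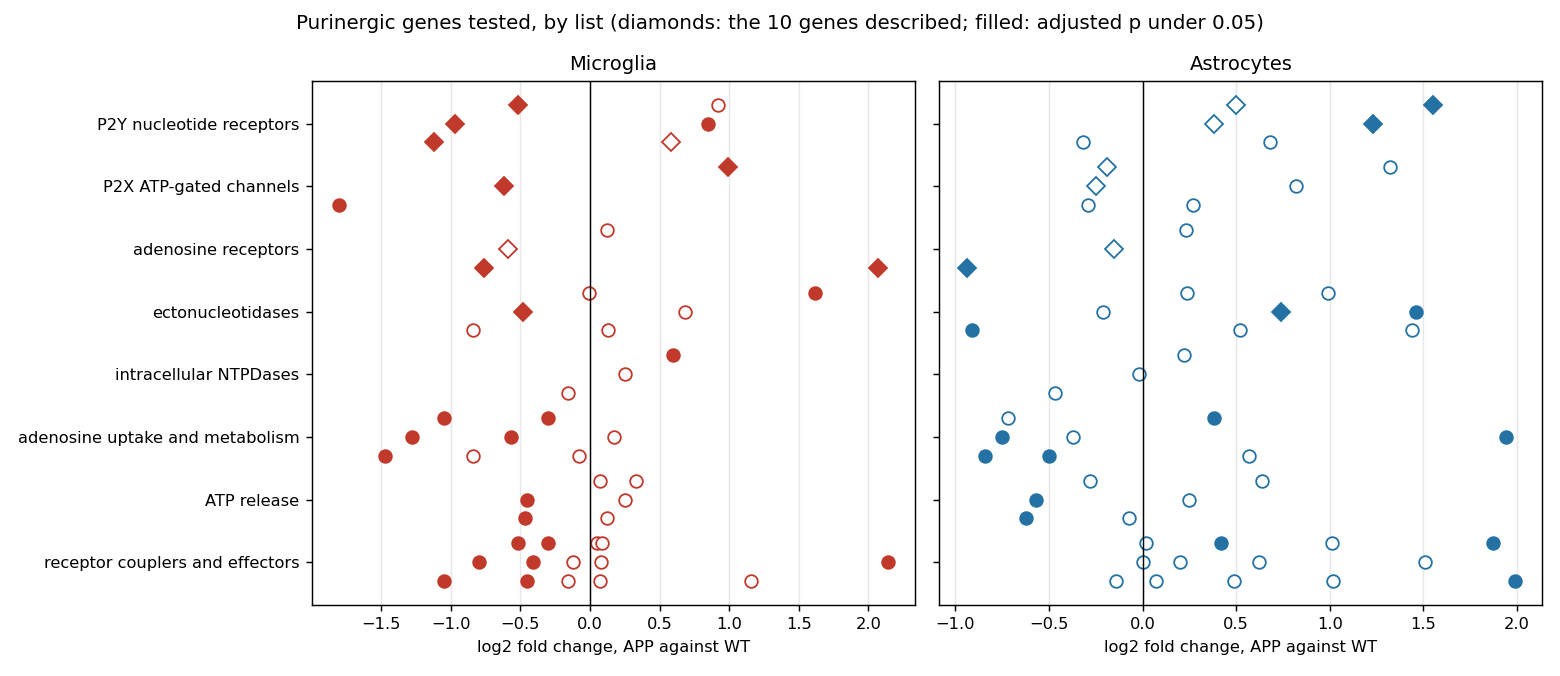
Log2 fold change of APP against WT in microglia and astrocytes for every tested gene of the 8 purinergic lists, 1 row per list; diamonds are the 10 genes described, circles the others, and filled symbols have an adjusted p under 0.05. In microglia the uptake and metabolism genes that passed all lie left of 0, and Gnas lies farthest right at 2.14.

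Genes whose level followed a member most closely were ranked by Pearson correlation of log2(CPM + 1) across the 9 libraries of a cell type, among tested genes that averaged 1 CPM or more. The libraries differ in genotype and depth, so the ranking is a description. Over 12753 genes in microglia P2ry12 was closest to Cd164 (r = 0.997), Atmin (0.997), Cmtm6 (0.996), Lpcat2 (0.996) and Cxxc5 (0.995), all of which fell, by 0.40 to 1.00 on the log2 scale. P2rx4 was closest to Ptprc (r = 0.995), which encodes the leukocyte antigen CD45, Daam1 (0.993), Pla2g6 (0.993), H2-Ob (0.992) and Dyrk2 (0.990), which rose by 0.44 to 0.98. Over 14001 genes in astrocytes Adora1 was closest to Tcp11l1 (r = 0.954), the angiotensinogen gene Agt (0.953), Gpld1 (0.948), Atp7b (0.947) and Cd81 (0.940), and none of these 5 passed the test there.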

How the data were processed

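RNA of sorted microglia and astrocytes was measured in 18 libraries, 1 of each cell type from each of 9 mice. The submitters' processing notes name the build mm10, the aligner STAR 2.7.3a, SAMtools 1.9 for alignments, FastQC 0.11.8 and Trimmomatic 0.39 for reads, and the R packages limma 3.46.0 and edgeR 3.32.1, with no order; no source used here gives the counter, the annotation or the use of strand. The deposited raw tables hold read counts of 24421 gene symbols per library, and per the names of the deposited tables outliers had been left out. The deposited log2 tables hold values that the authors normalized, for 12902 genes in microglia and 14141 in astrocytes, and served as an alternative only.

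Counts were fitted with edgeR 4.0.16 (R 4.3.3): TMM, filterByExpr (minimum count 10, total 15), quasi-likelihood F-test with sex as a covariate, and Benjamini-Hochberg adjustment over all genes tested. The difference of responses and the contrasts of cell types came from 1 fit of all 18 libraries with sex within each cell type. The genes and lists were chosen with earlier results of these data known. Named were all 10 genes, up to 4 called genes of each purinergic list per cell type, lowest adjusted p first (the lowest p where none was called), the listed genomic neighbours (1 is not reported here) and the 5 genes most like P2ry12, P2rx4 and Adora1. DESeq2 1.42.0, limma voom (limma 3.58.1), other filters, covariates and subsets of libraries were alternatives. Scripts were tested on simulated data.

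Libraries of 1 mouse share its number, and their deviations from the group means correlated at Pearson r of 0.0568 to 0.247, with 8 of 9 microglia libraries matching their own mouse best. Replicate numbers shared by WT and APP are different mice. Animals are separate per the labels, so p-values of APP against WT within a cell type measure the spread between mice. The main fit over all libraries took the libraries of 1 mouse as independent, so its p-values do not measure that spread alone. With the mouse as a replicate block the same number of differences passed, 6, with an edgeR adjusted p of 0.0021 for P2ry12. Counts limit precision by sampling error, and intervals or floors cover counting error only.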

Additional observations from a re-analysis of the deposited data

Results flagged for a closer look

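One library stood apart from its group: APP replicate 5 of the astrocytes, with 142 CPM of Adora1 against 119 to 123 CPM in the other 4 APP libraries. Of 40 pairs of a gene and a group read this way 1 was picked out, and chance picks out about 1 in 20 groups.

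For 6 genes the response to APP differed between the cell types in the test of the difference itself (edgeR, microglia minus astrocytes, log2). P2ry12, P2ry13, P2ry6 and Entpd1 had differences of -1.45, -2.16, -1.94 and -1.17. P2rx4 and Adora1, which encode an ATP channel and an adenosine receptor, had differences of 1.28 and 2.26. In P2ry13, P2ry6 and Entpd1 both responses passed with opposite signs, and in P2ry12, P2rx4 and Adora1 the response in microglia passed and that in astrocytes did not. Without WT replicate 1 the astrocyte calls of P2ry13, P2ry6 and Entpd1 were lost, as were the differences of P2ry6 and Entpd1. Calls over all genes fell as well, to 0.225% in astrocytes and 5.45% for the difference. P2ry6 had only 2 to 14 counts per WT astrocyte library. As given above, the astrocyte levels of P2ry13 and P2ry6, as shares of the microglial level, lay within the range of the microglial markers. With endothelial markers in the model the astrocyte log2 fold change of Entpd1 was 0.25. The part of these markers was not tested.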

How the results depend on the processing

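Of the 10 genes, 8 changed in microglia in 17 of 19 alternatives, and 6 with males alone or with WT replicates 1 and 4 left out together. All 10 differed between the cell types, in both genotypes, under all 16 alternatives (every one of 160 values for each genotype on the same side). For the difference of response, 6 passed, 4 without WT replicates 1 and 4, 8 with no sex covariate and 7 with DESeq2. With the mouse as a replicate block 6 passed, and 4 to 7 when a mouse was left out. Of all genes, 12.5% were more positive and 8.91% more negative in the main fit. The shares called in either direction were 5.79% without WT replicates 1 and 4, 25.9% with no sex covariate and 25.2% with DESeq2. They were 18.7% with the mouse as a block and 5.45% to 21.1% when a mouse was left out. In astrocytes 4 passed, 4 with DESeq2, limma voom and the deposited log2 values, 2 with the replicate number as a replicate block (no 2 mice share more than a number; r was -0.211 to 0.107), 1 with the endothelial markers as a covariate, 0 with males alone, with WT replicates 1 and 4 left out, or with the microglia markers as a covariate, and 0 to 5 when a library was left out. Calls over all genes fell as well: to 2.59% with the endothelial markers, 0 of 15385 with males alone, 0.924% without WT replicates 1 and 4, and 0 of 14957 with the microglia markers. Males alone means 1 APP mouse, so its spread is taken from the WT mice. The replicate block changed no call in microglia. Without WT replicates 1 and 4, 17.1% of all genes tested in microglia were called, against 19.1% rising and 19.2% falling in the main fit.

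Values that changed sign were not called in either fit except where named. In microglia P2ry1 had -0.02 with no sex covariate and -0.18 without WT replicates 1 and 4, and Adora2b had 0.15 in females alone and -1.39 to 0.16 when a library was left out. In astrocytes, with microglia markers as a covariate, P2ry12 had -0.20, P2ry6 -1.22, P2ry1 -1.05, P2rx4 0.38, Entpd1 -0.92 and Adora1 0.95; P2ry6 and Entpd1 were called without it. With endothelial markers as a covariate P2rx7 had 0.04 and Adora1 0.24, and Adora1 had 0.14 without WT replicates 1 and 4. In the difference of response P2ry1 had -0.02 with no filter, -0.44 with no sex covariate, -0.46 without WT replicates 1 and 4 and -0.22 to 0.63 when a mouse was left out, and Adora2b had -0.92 without WT replicates 1 and 4 and -0.60 to 1.17 when a mouse was left out. The causes were not tested. The stricter filter (50 counts in 4 libraries) left no value for P2ry1 and Adora2b in microglia or P2ry6 in astrocytes. The depth limits P2ry1 and Adora2b in microglia and P2ry6 and Adora3 in astrocytes most, where counts were lowest.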
